A study of Homo sapiens with 6 samples.

Results

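NEAT1, MALAT1 and TALAM1 are long non-coding RNAs of a pair of neighbouring genes on chromosome 11, and they make up 3 of the 35036 rows of a table of read counts over non-coding genes. They were taken by name. The table covers 6 libraries of U-2OS cells, an established human osteosarcoma line. All 6 were treated with actinomycin D, which intercalates into DNA and blocks transcription, and none was left untreated. The SiCtrl group had a control siRNA in 3 libraries, and the SiSFPQ group had an siRNA against SFPQ in 3 libraries. SFPQ is an RNA-binding protein of the nucleus and a core protein of paraspeckles. RNA was selected for poly(A) tails. How long and how strongly the cells were exposed to actinomycin D, and which siRNA sequences were used, is not known from the labels. SFPQ and the coding markers of the cell line were not analysed here, so the groups and the cell type rest on the labels.

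NEAT1 is the RNA scaffold of paraspeckles, nuclear bodies that gather around it. It is made as a short polyadenylated form and a long form that share their start, and the long form builds the body. MALAT1 is an abundant RNA of nuclear speckles, which are rich in splicing factors. TALAM1 is transcribed from the opposite strand of the MALAT1 gene. The long form of NEAT1 and the main form of MALAT1 do not end in an ordinary poly(A) tail. RNase P cuts a tRNA-like piece off their 3′ ends, and the new end is held in a triple helix between an A-rich tract and U-rich stretches upstream.

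Those ends are shown because they bear on what a poly(A) selection can hold. They are transcript sequences of GENCODE release 29 (GRCh38), plus strand, written as DNA. Capitals in the MALAT1 and the long NEAT1 end mark a U-rich stretch and the A-rich tract, and capitals in the short NEAT1 end mark AATAAA, the signal for cleavage and polyadenylation. The positions are chr11:65506065-65506174, chr11:65445484-65445540 and chr11:65426454-65426513.
MALAT1 end, with the tRNA-like piece after the tract: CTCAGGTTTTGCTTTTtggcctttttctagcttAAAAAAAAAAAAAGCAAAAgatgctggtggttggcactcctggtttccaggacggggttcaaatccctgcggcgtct
NEAT1 long form end: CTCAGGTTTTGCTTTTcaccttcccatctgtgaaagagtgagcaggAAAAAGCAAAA
NEAT1 short form end: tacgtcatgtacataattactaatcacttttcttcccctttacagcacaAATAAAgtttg

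The stretch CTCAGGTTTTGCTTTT, 16 bases long, was common to the MALAT1 and long NEAT1 ends, and each tract held AAAAAGCAAAA. Both motifs were chosen from these 2 ends, as the longest runs they share, and searched on the transcript strand. Of 206694 GENCODE transcripts, 2 held the first motif, MALAT1-202 and NEAT1-202, while 0.437% held the second. Those same 2 transcripts were the 2 that held both within 100 bases. MALAT1-202, of 8708 bases, had 1 run of at least 10 A in a row, the 13 A of the tract itself. NEAT1-202, of 22743 bases, had 5 such runs, the first at base 6038. None of the 7 shorter NEAT1 transcripts had one. Among 688 lincRNA transcripts of at least 3000 bases, 28.9% had such a run. AATAAA stood in the last 60 bases of 1 of the 8 NEAT1 transcripts, and in those of 25.2% of all transcripts of at least 60 bases. How much of each RNA the selection captured was not measured, so the values below are levels of captured RNA.

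Library totals in the table ran from 1298658 to 1599566 counts. They are sums over non-coding genes and not the sequencing depth. Reads over overlapping rows, such as MALAT1 and TALAM1, enter them more than once. Of 6325 genes tested with edgeR, 48.4% were called at an adjusted p under 0.05, 24.0% as lower and 24.5% as higher in SiSFPQ. Whether each library is its own culture is not labelled, so p-values measure the spread between these samples, which may be technical. In bulk RNA, fewer cells with an RNA and less of it per cell cannot be told apart. Every library had actinomycin D, so a lower level before the drug and a faster loss under it cannot be told apart either.

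The first question was how much of each library total the nuclear body RNAs took up with and without the SFPQ siRNA. NEAT1 (ENSG00000245532, plus strand) had 23149, 24059 and 20345 counts in SiCtrl replicates 1 to 3 and 13349, 18255 and 16152 in SiSFPQ. As a share of the library total this was 1.58%, 1.57% and 1.47% in SiCtrl against 1.03%, 1.14% and 1.04% in SiSFPQ. Every SiSFPQ library lay below every SiCtrl library. The mean share was 1.54 ± 0.0630% in SiCtrl and 1.07 ± 0.0612% in SiSFPQ (SD, n = 3 each), 30.5% lower.

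MALAT1 (ENSG00000251562, plus strand) had 17582, 17073 and 15741 counts in SiCtrl and 6529, 8034 and 7604 in SiSFPQ. Its share was 1.20%, 1.11% and 1.14% in SiCtrl and 0.503%, 0.502% and 0.492% in SiSFPQ. The groups again did not overlap, and the gap between them was wider than for NEAT1. The mean share was 1.15 ± 0.0471% in SiCtrl and 0.499 ± 0.00616% in SiSFPQ (SD, n = 3 each), 56.6% lower. The SiSFPQ libraries differed little among themselves, with a coefficient of variation of 1.24%. Counting error alone gives 1.12% to 1.24% at those counts. In SiCtrl the coefficient was 4.09%, and for NEAT1 it was 4.09% in SiCtrl and 5.71% in SiSFPQ. Of all tested genes, 26.9% had every SiSFPQ library below every SiCtrl library in CPM, and 54.0% had groups that did not overlap in either direction.

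TALAM1 (ENSG00000289740, minus strand) had 17581, 17071 and 15739 counts in SiCtrl and 6527, 8031 and 7603 in SiSFPQ. These are the MALAT1 values less 1 to 3 counts in each library, so its mean shares were 1.15 ± 0.0471% and 0.499 ± 0.00610% (SD, n = 3 each). With 3 libraries against 3, the two-sided exact permutation test gave its smallest possible p of 0.1 for the shares of all 3 RNAs (0.1 after Benjamini-Hochberg adjustment over the 3). NEAT1 and MALAT1 together made up 2.69 ± 0.0923% of the SiCtrl library totals and 1.57 ± 0.0635% of the SiSFPQ library totals (SD, n = 3 each).

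**Figure D1:**
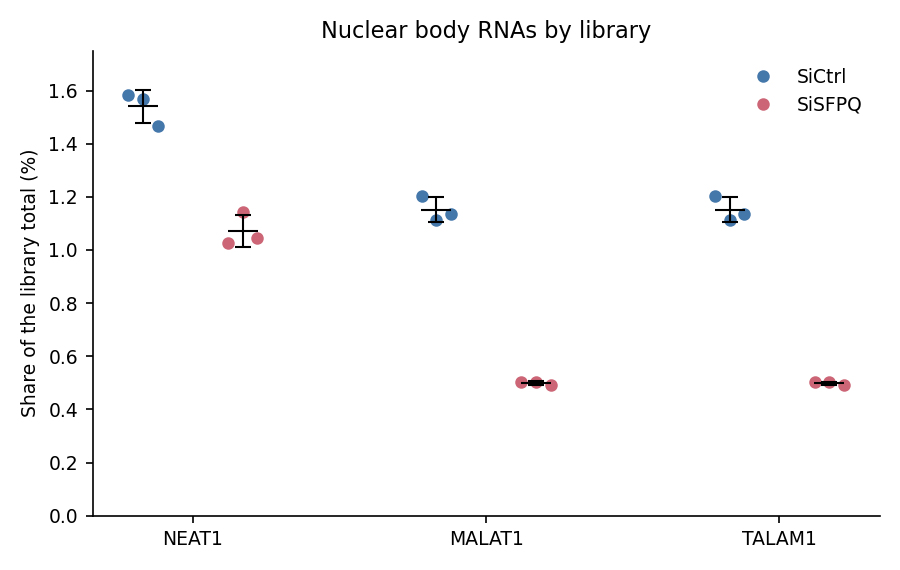
Share of the library total (%, y axis from 0) for NEAT1, MALAT1 and TALAM1; points are the 3 libraries of each group, bars the mean ± SD. SiSFPQ libraries lie below all SiCtrl libraries for each RNA, at 1.03% to 1.14% for NEAT1 and 0.492% to 0.503% for MALAT1, and the TALAM1 points repeat those of MALAT1.

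In the fit over all genes, the paraspeckle scaffold NEAT1 fell, with a log2 fold change of -0.59 ± 0.04 (SE, edgeR quasi-likelihood test, Benjamini-Hochberg adjusted p = 9.6e-49), a level 0.666 times that of SiCtrl. The speckle RNA MALAT1 fell as well, with -1.27 ± 0.04 (SE, edgeR, adjusted p = 7.3e-204), to 0.415 times. TALAM1 gave the same value of -1.27, which is not a separate result because it rests on the same counts. Of the 3 rows, 3 were called lower, against the background of 24.0%. A change below that of MALAT1 was found for 168 of the 6325 tested genes, and below that of NEAT1 for 971. Among 151 abundant genes, whose mean level reached 1000 CPM (counts scaled to a common library size, after TMM factors), 45.7% were called lower and the median log2 fold change was -0.05. TALAM1 and MALAT1 had the lowest values of these 151, and NEAT1 ranked 15 from the lowest.

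**Figure D2:**
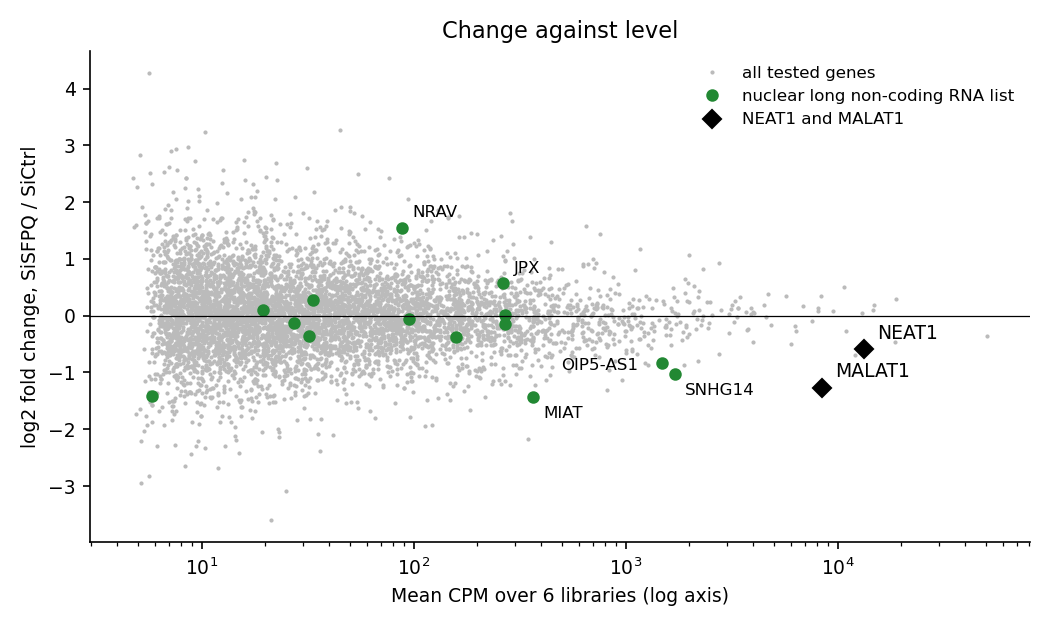
log2 fold change of SiSFPQ over SiCtrl (y axis) against mean CPM over the 6 libraries (log x axis) for 6325 tested genes in grey, the nuclear long non-coding RNA list in green, and NEAT1 and MALAT1 as black diamonds. MALAT1 at -1.27 lies below all other genes of at least 1000 CPM except TALAM1, which holds the same counts and is not drawn apart; NEAT1 is at -0.59.

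The next question was whether MALAT1 and NEAT1 changed by different amounts. Their ratio within a library needs no scaling between libraries. MALAT1 had 0.760, 0.710 and 0.774 counts per NEAT1 count in the SiCtrl libraries, and 0.489, 0.440 and 0.471 in the SiSFPQ libraries. The groups did not overlap. The ratio went from 0.748 ± 0.0337 to 0.467 ± 0.0248 (SD, n = 3 each), a difference of -0.68 in log2 ratio (two-sided exact permutation test, p = 0.1, the smallest that 3 against 3 allows). As plain-total CPM per kilobase of listed exonic length, MALAT1 stood at 1099 ± 45.0 and NEAT1 at 677 ± 27.7 in SiCtrl (SD, n = 3). MALAT1 was thus the higher in 3 of 3 SiCtrl libraries by this measure. In SiSFPQ it stood at 477 ± 5.89 and NEAT1 at 471 ± 26.9 (SD, n = 3). There the levels of the 2 RNAs lay within the spread of the libraries, and MALAT1 was the higher in 2 of 3. This order rests on the listed exonic lengths of 22767 bases for NEAT1 and 10468 for MALAT1, and it turns with the length taken. With the listed span of 8911 bases for MALAT1, MALAT1 was the higher in 3 of 3 libraries of each group, by 1.91 ± 0.0860 times in SiCtrl and 1.19 ± 0.0633 times in SiSFPQ (SD, n = 3 each). With the listed spans of both, which give NEAT1 3612 bases, MALAT1 was the lower in all 6 libraries, at 0.303 ± 0.0136 and 0.189 ± 0.010 times NEAT1 (SD, n = 3 each). Which of the 2 RNAs was the higher per length is therefore not settled, while the fall in their ratio does not depend on length.

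**Figure D3:**
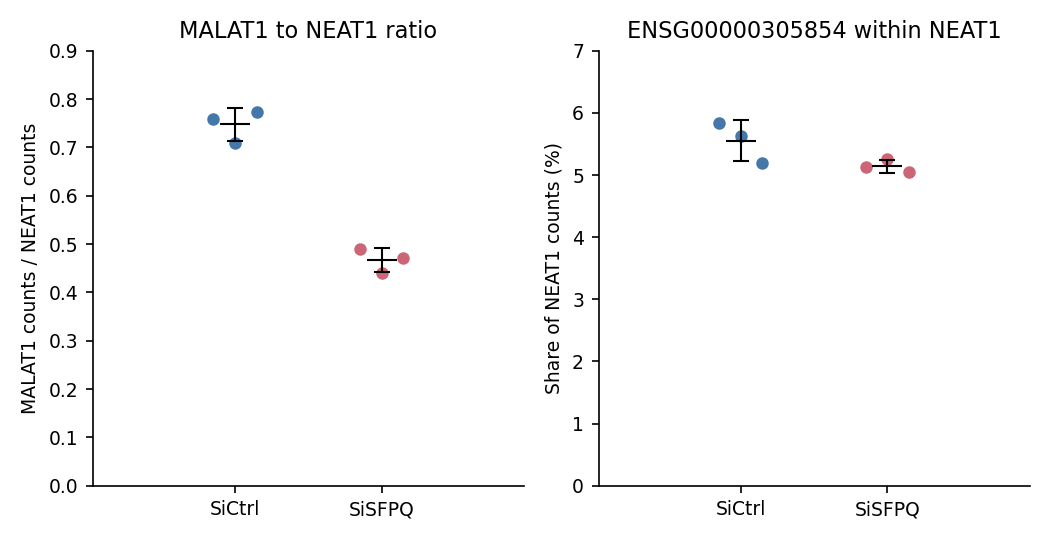
Left, MALAT1 counts per NEAT1 count; right, counts of the row ENSG00000305854 as a percentage of NEAT1 counts; points are libraries, bars the mean ± SD of 3, y axes from 0. The MALAT1 to NEAT1 ratio is 0.710 to 0.774 in SiCtrl and 0.440 to 0.489 in SiSFPQ, while the groups overlap on the right.

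The counts of overlapping rows show where along the genes the reads lay. The listed spans of MALAT1 (chr11:65497606-65506516) and TALAM1 (chr11:65499045-65507432) share 7472 bases. The 1439 bases of MALAT1 before TALAM1 begins are almost covered by ENSG00000270117 (chr11:65497648-65498904, minus strand), a row of 1257 bases. That row had 1, 2 and 2 counts in SiCtrl and 2, 3 and 1 in SiSFPQ. In 6 of 6 libraries, MALAT1 counts equalled TALAM1 counts plus those of ENSG00000270117, with 0 left over. Reads were thus counted in each row they touched, on either strand, although the libraries were made with a stranded kit per the labels. The listed exonic length of MALAT1, 10468 bases, exceeds its listed span by 1557 bases, so its counted exons reach outside that span. The 916 bases of TALAM1 beyond the listed MALAT1 end may therefore belong to both rows, and the counts do not show how many reads lay there. Transcripts of the TALAM1 strand were therefore not measured apart, and the fall in the TALAM1 row cannot be told apart from that of MALAT1.

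**Figure D4:**
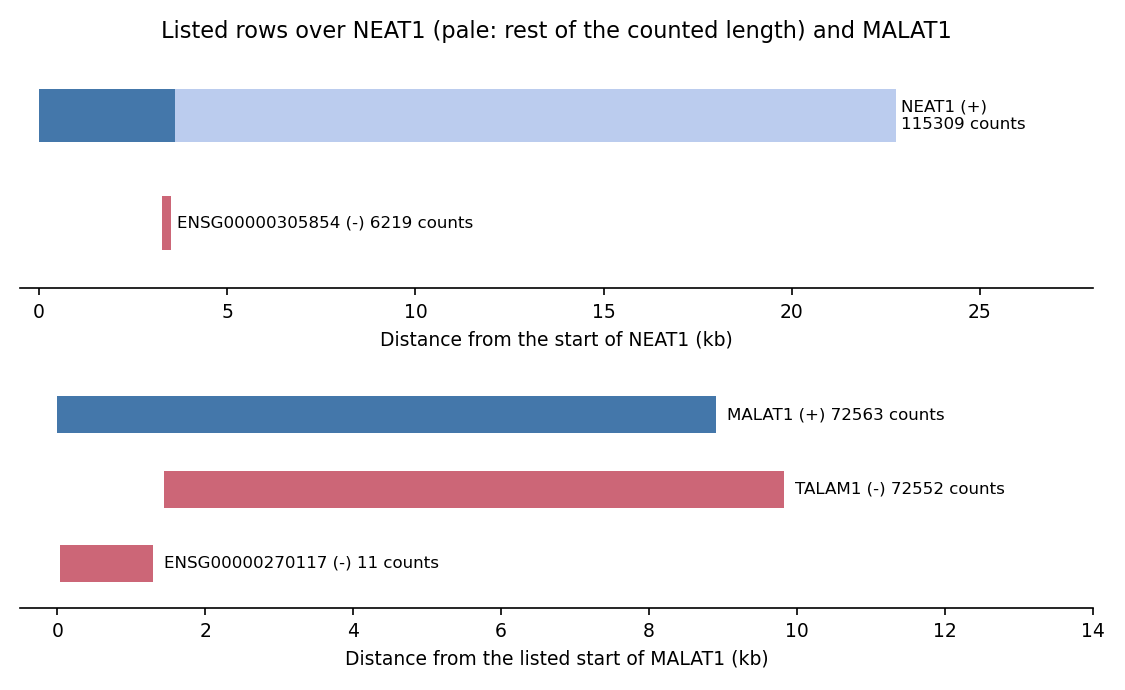
Listed rows over NEAT1 (top) and MALAT1 (bottom) by distance in kb from the listed start of each gene, with strand and counts summed over the 6 libraries; the pale bar is the rest of the NEAT1 length that was counted. MALAT1 (72563 counts) and TALAM1 (72552 counts) share most of their span, while ENSG00000270117 over the first part of MALAT1 held 11 counts.

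This places the MALAT1 counts relative to its 2 transcription starts in RefSeq. Over the 6 libraries, ENSG00000270117 held 11 counts (95% Poisson interval 5.49 to 19.7, counting error only), or 8.75 per kilobase of the row. TALAM1 held 72552, or 8650 per kilobase. The listed start of the shared stretch, 65499045, is also the second RefSeq start of MALAT1, and the first lies at 65497738, upstream. RNAs from either start can run through the downstream stretch, and how evenly reads covered them was not examined. Which start was used is therefore not shown by the counts. The windows around both starts are shown because the counts fall almost wholly downstream of the second. Each holds 250 bases before and 50 from the start (RefSeq, GRCh38.p14, plus strand), with TATAAA, the TATA box motif, in capitals. The positions are chr11:65497488-65497787 and chr11:65498795-65499094.
MALAT1 first start: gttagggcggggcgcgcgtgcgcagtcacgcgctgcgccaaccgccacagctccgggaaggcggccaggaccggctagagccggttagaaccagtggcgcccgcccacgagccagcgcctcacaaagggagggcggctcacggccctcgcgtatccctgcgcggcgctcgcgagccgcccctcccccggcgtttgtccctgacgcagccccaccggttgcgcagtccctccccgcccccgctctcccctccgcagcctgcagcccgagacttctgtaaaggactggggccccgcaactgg
MALAT1 second start: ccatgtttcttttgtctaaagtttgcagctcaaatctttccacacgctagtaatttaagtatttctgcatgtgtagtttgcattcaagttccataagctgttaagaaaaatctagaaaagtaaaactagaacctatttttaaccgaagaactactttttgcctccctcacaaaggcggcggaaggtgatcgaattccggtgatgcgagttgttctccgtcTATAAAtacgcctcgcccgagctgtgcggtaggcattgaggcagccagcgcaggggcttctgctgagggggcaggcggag

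The second window has TATAAA beginning 30 bases before the start, and the first has none on either strand. Of 35116 promoter windows of 300 bases in the RefSeq table, 11.5% held TATAAA on either strand, and 2.30% held it on the gene's strand beginning 20 to 40 bases before the start. The GC content was 73.7% in the first window and 46.0% in the second, with a median of 58.7% over all windows. A match of letters is a description and was not tied to binding of a factor. A promoter entry was found for MALAT1 and not for NEAT1 or TALAM1.

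In NEAT1, a row of 242 bases on the minus strand gave a window inside the gene. NEAT1 is listed at chr11:65422774-65426385, the part of the short form, but its listed exonic length of 22767 bases equals the whole GENCODE gene, which runs to 65445540. The row ENSG00000305854 (chr11:65426052-65426293) begins 3278 bases after the listed start and ends 220 bases before the last end of the shorter NEAT1 transcripts. Both NEAT1 forms cross it. It had 1350, 1355 and 1055 counts in SiCtrl and 685, 959 and 815 in SiSFPQ. All SiSFPQ values were below all SiCtrl values, as for NEAT1 itself, whose reads it cannot be told from. It changed by -0.70 ± 0.06 on the log2 scale (SE, edgeR, adjusted p = 5.8e-34).

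The row held 5.83%, 5.63% and 5.19% of NEAT1 counts in SiCtrl and 5.13%, 5.25% and 5.05% in SiSFPQ. These shares overlapped between groups, at 5.55 ± 0.331% and 5.14 ± 0.104% (SD, n = 3 each; two-sided exact permutation test, p = 0.2). An even spread over all 22767 bases would put 1.06% of counts in 242 bases, and one over the listed 3612 bases alone would put 6.70% there. A short row also gathers reads that only touch it, and the read length was not given. Such reads would have to add 907 bases to the row for an even spread over the long form to reach the lowest share seen, 5.05%. NEAT1 counts were thus denser in this stretch near the end of the short form than an even spread over the long form gives, in both groups, but the forms themselves were not counted apart.

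Other non-coding RNAs, listed by name, were then set beside the members. The list held RNAs taken to act or stay in the nucleus and the small Cajal body RNAs (names starting with SCARNA). Where each RNA lies in these cells was not measured, and some may act outside the nucleus. Of 21 rows found, 14 had enough counts to test, and 5 of these were called lower (35.7%, against 24.0% of all tested genes) and 2 higher (against 24.5%). The median log2 fold change was -0.14, and 0.01 over all tested genes. The most abundant members were SNHG14, OIP5-AS1, MIAT and CHASERR.

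MIAT, a nuclear RNA found in speckle-like foci, had 772, 804 and 671 counts in SiCtrl and 229, 322 and 335 in SiSFPQ. The groups were far apart, with a log2 fold change of -1.43 ± 0.07 (SE; edgeR, adjusted p = 5.1e-91). SNHG14, a long snoRNA host over the imprinted SNRPN and UBE3A genes, changed by -1.03 ± 0.05 (edgeR, adjusted p = 3.0e-98). OIP5-AS1, also known as cyrano, changed by -0.84 ± 0.05 (edgeR, adjusted p = 5.8e-64). The listed spans of SNHG14, OIP5-AS1 and CHASERR hold exons of coding genes, and that of MIAT does not. CHASERR, which lies next to the chromatin remodeller gene CHD2, had 285 ± 9.13 CPM in SiCtrl and 257 ± 19.2 in SiSFPQ (SD, n = 3) and was not called (edgeR, adjusted p = 0.070), but it passed without SiCtrl replicate 3 (adjusted p = 0.039) or SiSFPQ replicate 3 (0.04995).

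The other called members are named after their values were seen. HOTAIR, a HOXC cluster RNA, changed by -0.38. SCARNA9, a guide RNA for modifying spliceosomal RNAs in Cajal bodies, had 12, 13 and 11 counts in SiCtrl and 5, 5 and 4 in SiSFPQ. It was called by edgeR (-1.42, adjusted p = 0.0029) but not by DESeq2 (-1.44, adjusted p = 0.11), which called it narrowly on edgeR's set of genes (adjusted p = 0.0498). JPX, an activator of X inactivation, rose by 0.57. Its listed span lies wholly within that of FTX, on the opposite strand, so the rows of JPX and FTX may share reads. NRAV, an RNA of antiviral responses, rose by 1.55, with 58, 66 and 64 counts in SiCtrl and 176, 221 and 188 in SiSFPQ. The listed span of NRAV holds exons of the coding gene DYNLL1, and that of HOTAIR holds exons of HOXC11. Those of JPX and SCARNA9 hold none. How many reads of the coding genes were counted in these rows was not tested. The members that passed thus went both ways. FTX, LINC-PINT, FIRRE, KCNQ1OT1, RBM5-AS1 and PCAT6 were not called, with log2 fold changes from -0.35 to 0.27, but KCNQ1OT1 passed without SiCtrl replicate 3 (-0.46, edgeR, adjusted p = 0.047).

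The last comparison asked whether other rows of the region moved with NEAT1 and MALAT1. Within 1000 kb on either side lay 78 further rows, of which 34 were tested, ENSG00000305854 among them. Of the other 33, 11 were called higher (33.3%, against 24.5% of all tested genes) and 6 lower (18.2%, against 24.0%), and 16 were not called. In all, 51.5% were called, against 48.4%. ENSG00000245156 and ENSG00000254452, both called lower, overlap and may share reads, so the 6 lower calls are not all separate. Their median log2 fold change was 0.23. With ENSG00000305854 counted, the calls were 11 higher and 7 lower, and without SiCtrl replicate 1 they were 7 and 7. The lowest value among all 34 was -1.02, for ENSG00000305576 over the coding gene B4GAT1, above the -1.27 of MALAT1.

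The nearest tested row upstream of NEAT1 was ENSG00000305830 (chr11:65413311-65422705, minus strand), over exons of the coding gene FRMD8. The row ends 68 bases before the listed NEAT1 start. It had 255, 218 and 246 counts in SiCtrl and 149, 222 and 221 in SiSFPQ. Counts overlapped, but relative to library size the groups lay apart, at 171 ± 20.2 CPM in SiCtrl and 132 ± 15.6 in SiSFPQ (SD, n = 3), or -0.37 on the log2 scale (edgeR, adjusted p = 0.00022). Between NEAT1 and MALAT1 the tested row was FAUP4 (chr11:65455192-65472515), a pseudogene of the ribosomal fusion gene FAU on the same strand. It rose, with 67.7 ± 9.85 CPM in SiCtrl against 93.4 ± 6.01 in SiSFPQ (SD, n = 3), or 0.47 on the log2 scale (edgeR, adjusted p = 0.00027). ENEMAL, a further row between them, had 1, 0 and 1 counts in SiCtrl and 3, 5 and 2 in SiSFPQ, too few to test. The 3 rows on this stretch were chosen by position after their values were seen.

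Among the most abundant neighbours, ENSG00000245156 and ENSG00000254452, both over the vesicle transport gene RAB1B, changed by -0.22 and -0.18. ENSG00000254452 lies wholly within the listed span of ENSG00000245156, on the same strand. The rows may therefore share reads, and their changes are not separate results. ENSG00000254452 lost its call with plain library totals (edgeR, adjusted p = 0.083) and without SiSFPQ replicate 2 (0.055). ENSG00000302197, over the matrix gene LTBP3, had 416 ± 7.22 and 440 ± 25.7 CPM (SD, n = 3) and was not called (edgeR, adjusted p = 0.27), but it passed with plain library totals (0.15, adjusted p = 0.038). The largest rise was that of DPP3-DT, over the coding genes DPP3 and PELI3, by 1.12. No single direction was thus shared across the tested rows of the region. Several of these rows lie over coding exons, and reads of the coding genes were not told apart from theirs.

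**Figure D5:**
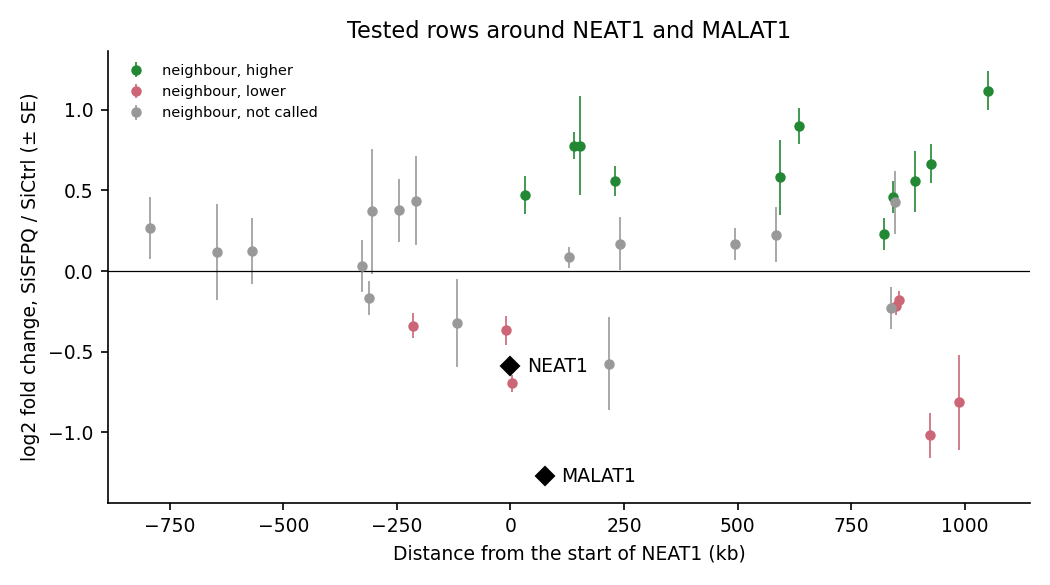
log2 fold change of SiSFPQ over SiCtrl (± SE, edgeR) against distance from the NEAT1 start in kb for the 34 tested neighbouring rows, coloured by call, with NEAT1 and MALAT1 as black diamonds. Neighbours lie between -1.02 and 1.12 on both sides of 0, and MALAT1 at -1.27 lies below all of them.

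Genes with the most similar profile were found by the root mean square difference of log2 CPM, each gene centred on its mean, over the 6 libraries and 2263 genes of at least 50 mean CPM, with NEAT1, MALAT1 and TALAM1 left out of the candidates. With 2 groups of 3, this ranks genes mainly by the size of the group difference. Nearest to NEAT1 were CTDSPL2-DT over CASC4 (0.0412) and the pseudogene row GUSBP11 over DRICH1 and RGL4 (0.0427). ENSG00000290796 over LRP5L (0.0563) and MAGEA4-AS1 over MAGEA4 (0.0569) followed. The log2 fold changes of these 4 ran from -0.61 to -0.52. Nearest to MALAT1 were ENSG00000271984 over the lysosomal gene CTSA (0.0475) and MIR29B2CHG over CD46 (0.0575), the host of microRNAs of the miR-29 family. FAM95A (0.0577), whose listed span holds no coding exon, and ENSG00000267601 over the protease inhibitor gene TIMP2 (0.0621) followed. The log2 fold changes of these 4 ran from -1.30 to -1.21. NEAT1 and MALAT1 differed from each other by 0.345. The nearest genes were picked as the closest of 2263 by this same measure, so the pair cannot be judged against them.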

How the data were processed

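The authors deposited unnormalised read counts for each gene, per the file headers and the whole-number values, beside its coordinates and exonic length. Libraries were stranded and poly(A)-selected from TRIzol-extracted RNA, per the labels' protocols. No source used here names the aligner, the counter, the annotation or the build. Of 13886 gene identifiers shared with GENCODE 29 (GRCh38), 99.8% overlapped their position there, so coordinates were read as GRCh38.

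Of 35036 genes, 6325 passed filterByExpr, 14030 had no count and 14681 had too few. edgeR 4.0.16 (R 4.3.3) was run with TMM factors, robust quasi-likelihood fits, group as the sole term and Benjamini-Hochberg adjustment over all tested genes. The SE is the log2 fold change over the square root of the F statistic. Library totals of 1298658 to 1599566 counts gave the shares. Exact permutation tests used SciPy 1.17.1. The fit was tested on simulated data.

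Named were the 3 members, the 4 most abundant tested rows of the nuclear list and of the neighbours, and the 4 genes nearest in profile to NEAT1 and to MALAT1 (prior count 2). Members and lists were chosen with earlier results of these data known. Of the nuclear list, TUG1, LINC00473, RN7SK, RMRP and RPPH1 were not analysed here, and TERC, MEG3, RMST, HOTTIP, PANDAR, CDKN2B-AS1 and DLX6-AS1 had too few counts. Libraries of 1 group differed, with a chi-square per degree of freedom of 1.24 to 1.40, so none was a copy of another. The chi-square takes rows as independent although some share reads, and it cannot tell technical replicates from separate cultures. Alternatives were other scalings, filters, DESeq2 1.42.0, limma-voom (limma 3.58.1), blocking on the replicate number, and dropping 1 library at a time.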

Additional observations from a re-analysis of the deposited data

How the results depend on the processing

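The log2 fold change of NEAT1 ran from -0.64 to -0.52 and that of MALAT1 from -1.31 to -1.20 over 18 alternatives each, and that of TALAM1 from -1.31 to -1.20 over 17, all past the threshold (edgeR, DESeq2 or limma-voom, largest adjusted p = 6.5e-22 for NEAT1 and 8.6e-42 for the other two). The values nearest 0 came with plain library totals, which moved the median of all genes to 0.07 and made 57.5% of calls higher (1762 higher and 1304 lower) where the TMM fit gave 50.5% (1547 and 1516). DESeq2 with its own filter called 1753 of 7974 genes (854 higher and 899 lower) where edgeR called 3063 of 6325. On the 6325 genes tested by edgeR, an alternative chosen after seeing the data, DESeq2 called 2087 (1013 higher and 1074 lower), and edgeR with no filter called 2874 of 21006. Among the neighbours DESeq2 called 7 higher and 6 lower on either set of genes, where edgeR called 11 and 7. With the counts of genes that overlap no other, plus the member, as the total, the share difference was -0.77 percentage points for NEAT1 and -1.09 for MALAT1, in place of -0.47 and -0.65. The log2 ratio of MALAT1 to NEAT1 differed by -0.69 between groups with the counts of ENSG00000305854 taken out of NEAT1, a setting chosen after seeing the data, as was all of the work on that row. Leaving out 1 library gave -0.72 to -0.64 for the ratio, -0.51 to -0.45 percentage points for the NEAT1 share, -0.67 to -0.63 for the MALAT1 share, and -0.59 to -0.27 for the share of ENSG00000305854 in NEAT1, with exact p of at least 0.2. Of 540 values of other named genes, 529 kept direction and call, 3 lost the call, 4 gained it and 4 changed sign. Those 4 were of genes not called in either case, namely FTX without SiCtrl replicate 3 or SiSFPQ replicate 1 (-0.040 to 0.056 with 1 library left out), LINC-PINT with plain library totals (0.0046) and PCAT6 without SiSFPQ replicate 1 (-0.059 to 0.21 with 1 library left out). By listed span, the log2 ratio of MALAT1 to NEAT1 per length was -1.72 in SiCtrl and -2.40 in SiSFPQ. Replicate numbers did not pair the samples, with correlations of deviations of -0.0053, 0.00067 and 0.011; the replicate block gave -0.59 for NEAT1, -1.27 for MALAT1, 3050 genes called, and exact p = 0.25 for the shares and the ratio, the smallest that 3 pairs allow. Counts of NEAT1 and MALAT1 are ample, while those of SCARNA9 and ENSG00000270117 limit what can be said of them.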
